A study of Mus musculus with 3 samples.

Results

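A set of 10 transcription factor genes known as marks of fibroblast lineages or scar-forming programmes, namely En1, Prrx1, Prrx2, Twist1, Twist2, Runx1, Meox1, Tcf21, Snai1 and Snai2, were followed in single cells of healing mouse skin wounds. They were chosen by name, matched by Ensembl identifier, and all 10 were found among the 32285 gene rows of the count tables. The tissue came from dorsal skin wounds of young adult male C57BL/6J mice, an inbred strain, with no genotype or treatment other than the injury, and was taken at Day 3, Day 7 or Day 14 after wounding. Each day was 1 library of unsorted cells pooled from several wounds, so no value has a replicate check, no p-value is given, and differences between days compare 3 libraries. The injury is described as incisional in the series text, whereas the study's methods describe punch wounds. Cells were sequenced from the 3′ end of each transcript, and each captured molecule carried a unique molecular identifier (UMI).

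These genes fall into a few families of DNA-binding proteins. En1, Prrx1, Prrx2 and Meox1 encode homeobox proteins. En1 marks a lineage of dorsal dermal fibroblasts that makes most of the scar tissue in back skin, Prrx1 plays a comparable part in ventral skin and limb mesenchyme, and Prrx2 is its paralogue, known from fetal dermis. Twist1, Twist2 and Tcf21 encode basic helix-loop-helix (bHLH) proteins. They bind DNA as dimers with widely expressed E proteins (Tcf3, Tcf4, Tcf12), and Id proteins block such dimers. Snai1 and Snai2 encode zinc finger repressors best known from epithelial-to-mesenchymal transition (EMT), the change in which epithelial cells lose their junctions and become migratory. Runx1 encodes a Runt domain protein with the partner Cbfb, essential for blood formation and also active in mesenchymal and hair follicle cells, and Meox1 is known as a regulator of activated fibroblasts in diseased heart and as a gene of endothelial cells. Tcf21 marks fibroblast progenitors of several internal organs.

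Levels are given as CPM, the UMIs of a gene in all cells of a class and library per 1000000 UMIs of those cells, with exact Poisson 95% intervals. Ratios between sums have exact conditional binomial 95% intervals and shares of cells have Clopper-Pearson 95% intervals. All of these cover counting error only, and they do not cover the spread between mice or wounds. The libraries held 5158 to 22924 barcodes and 38133650 to 120940799 UMIs. After filters and removal of called doublets 37460 cells remained, and pairs of libraries shared 19 to 111 barcodes. Cells were grouped into classes by clustering without these 10 genes and without the companion genes listed further on, and clusters were named from marker lists, standard ones for every class except the mesenchymal cell-like class described further on. The fibroblast-like class held 412 cells with 19725146 UMIs on Day 3, 5972 cells with 63960925 UMIs on Day 7 and 6725 cells with 70341847 UMIs on Day 14. All 8 fibroblast markers were found in it on every day, at a summed level of 45684, 75509 and 91009 CPM. The 9 macrophage markers summed to 93.3, 288 and 94.2 CPM in the same cells, and those of epithelial cells to 7.76, 18.6 and 94.0 CPM. Gm42418, a transcript that overlaps ribosomal RNA sequence, took 3.41%, 9.35% and 5.61% of the fibroblast-like UMIs on Days 3, 7 and 14, and these UMIs are part of the total in every CPM value. The part of any of these in the levels below was not tested. Median depth of the fibroblast-like cells was 44189 UMIs on Day 3 and 10295 and 10217 UMIs on Days 7 and 14, so shares of cells were compared only after thinning to a fixed number of UMIs. In such sums, fewer expressing cells and less RNA per cell cannot be told apart.

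The positions of the genes are given for the build GRCm38 (mm10, the build named in the submitters' processing notes) from the GENCODE M21 annotation. En1 (ENSMUSG00000058665) lies at chr1:120602418-120607992 on the plus strand. Prrx1 (ENSMUSG00000026586) lies at chr1:163245119-163313710 on the minus strand and Prrx2 (ENSMUSG00000039476) at chr2:30834972-30881251 on the plus strand. Twist1 (ENSMUSG00000035799) lies at chr12:33957671-33959829 and Twist2 (ENSMUSG00000007805) at chr1:91801461-91848028, both on the plus strand. Runx1 (ENSMUSG00000022952) spans chr16:92601466-92826149 on the minus strand. Meox1 (ENSMUSG00000001493) lies at chr11:101877510-101894374 and Tcf21 (ENSMUSG00000045680) at chr10:22817281-22820174, both on the minus strand. Snai1 (ENSMUSG00000042821) lies at chr2:167538195-167542814 and Snai2 (ENSMUSG00000022676) at chr16:14705852-14709385, both on the plus strand. Reads of this kind come mostly from the last exon. The pairs Prrx1 and Prrx2, Twist1 and Twist2, and Snai1 and Snai2 share 0 words of 31 bases between their annotated transcripts, so a read that matches one of a pair exactly over that length cannot match the other exactly. Exons of other genes overlap only Twist2 (Gm29100) and Runx1 (Gm26626), in both cases on the opposite strand, and whether the counting used strand is not given in the sources used here.

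The sequence before the start site is shown for genes whose patterns the results turn on. En1, Twist1 and Twist2 are shown because their Day 14 levels were highest in the same subcluster of fibroblast-like cells. Runx1 is shown with both of its promoters because it was the member present in nearly every cell class and because 3′ counts do not tell transcripts of the 2 promoters apart. Each comes from the 250 bases before the RefSeq start site, 5′ to 3′ on the strand of the gene, in GRCm38.p6, for which RefSeq held a promoter of 8 of the 10 genes. Bases that fall in an exon of the gene in GENCODE are left out, which removed 69 bases of En1 and 75 of the distal Runx1 window and none of the others. Capitals mark every match, on either strand, to the E-box CANNTG (the core bound by bHLH proteins and, in some forms, by Snail proteins), the TATA box TATAAA, the GC box GGGCGG and the CCAAT box CCAAT. No match overlaps another.
En1, chr1:120602237-120602417, plus strand: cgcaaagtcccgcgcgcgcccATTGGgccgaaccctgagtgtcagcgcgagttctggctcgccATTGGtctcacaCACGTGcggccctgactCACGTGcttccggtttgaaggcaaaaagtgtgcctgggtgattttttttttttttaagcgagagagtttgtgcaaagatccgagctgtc
Twist1, chr12:33957421-33957670, plus strand: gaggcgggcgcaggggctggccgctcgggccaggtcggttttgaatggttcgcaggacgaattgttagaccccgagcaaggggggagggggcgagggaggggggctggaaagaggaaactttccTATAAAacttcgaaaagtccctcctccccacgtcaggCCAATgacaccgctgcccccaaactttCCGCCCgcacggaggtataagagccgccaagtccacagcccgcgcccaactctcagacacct
Twist2, chr1:91801211-91801460, plus strand: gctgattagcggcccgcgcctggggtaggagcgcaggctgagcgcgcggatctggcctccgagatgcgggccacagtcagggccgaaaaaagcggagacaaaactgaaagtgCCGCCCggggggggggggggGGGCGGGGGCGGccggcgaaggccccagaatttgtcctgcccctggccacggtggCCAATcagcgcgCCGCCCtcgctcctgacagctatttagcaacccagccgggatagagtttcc
Runx1 proximal, chr16:92697330-92697579, minus strand: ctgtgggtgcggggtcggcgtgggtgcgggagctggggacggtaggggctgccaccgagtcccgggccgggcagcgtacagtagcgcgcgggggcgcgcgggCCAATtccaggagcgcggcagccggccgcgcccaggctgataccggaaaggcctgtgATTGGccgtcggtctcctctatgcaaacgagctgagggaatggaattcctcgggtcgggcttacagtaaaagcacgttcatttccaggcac
Runx1 distal, chr16:92826150-92826324, minus strand: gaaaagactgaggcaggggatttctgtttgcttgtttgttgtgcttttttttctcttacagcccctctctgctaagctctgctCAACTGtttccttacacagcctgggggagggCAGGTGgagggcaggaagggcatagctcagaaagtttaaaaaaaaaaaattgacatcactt

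The sequence shown for En1 holds 2 E-boxes, both CACGTG, and that of the distal Runx1 promoter holds 2, with 1 more among the bases left out. Those of Twist1, Twist2 and the proximal Runx1 promoter hold 0. Over all 32851 promoters of the reference, 66.2% of the full 250-base windows held an E-box, and so did 3 of the 9 windows of these genes. Twist1 holds the TATA box, which 12.4% of all windows hold, and 1 GC box. Twist2 holds 4 GC boxes, a motif found in 32.7% of windows. En1 and the proximal Runx1 promoter hold 2 CCAAT boxes each and Twist1 and Twist2 hold 1 each, a motif found in 33.8% of windows. These are matches of letters, not measured sites.

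In fibroblast-like cells, 2 of the 9 genes that reached a mean of 1 CPM over the libraries differed at least 2-fold between Days 3 and 7, Prrx2 upward and Snai1 downward. Another 2 differed at least 2-fold between Days 7 and 14, Meox1 upward and Snai2 downward. Among all 12273 genes tested at that level, 9.05% were at least 2-fold higher and 9.44% at least 2-fold lower on Day 7 than on Day 3, and 3.72% were higher and 8.69% lower on Day 14 than on Day 7. Cluster 15, which held 2305 of the 5972 fibroblast-like cells on Day 7, carried all 8 fibroblast markers. Its 10 leading genes against all cells held 0 of them, as did those of every other fibroblast-like cluster. Among these clusters it alone held a marker of another class there, 1 of the mesenchymal class (Crabp1), so values without it are also given. The Prrx2 difference lies at the limit, with a log2 ratio of 0.97 without cluster 15 and 0.99 when each cell was classed by its own marker UMIs. Counts of 1 in 9 genes in each direction are near those shares and set the group apart in no direction. The median log2 ratio of the 9 genes was -0.17 for Day 7 over Day 3 and -0.08 for Day 14 over Day 7, beside -0.13 and -0.21 for all genes.

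**Figure D1:**
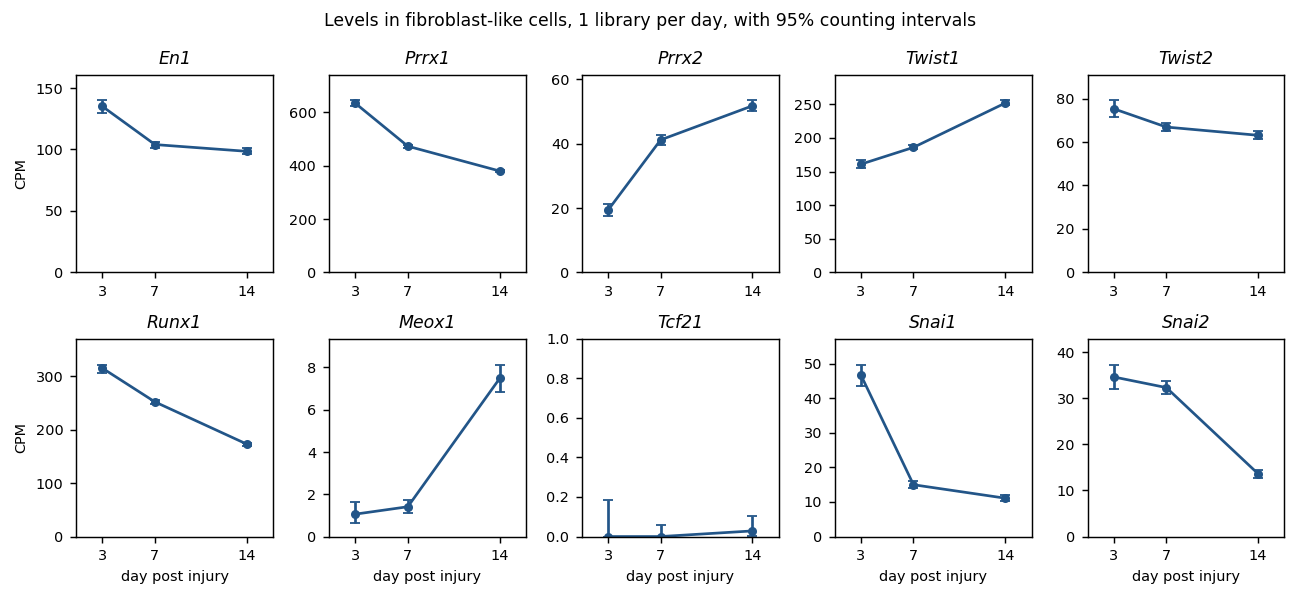
Level of each of the 10 genes in fibroblast-like cells (CPM, vertical axis from 0, a scale of its own for each gene) against day post injury (horizontal axis). Points are the 1 library of each day and bars are 95% counting intervals. Prrx2, Twist1 and Meox1 were higher on Day 14 than on Day 3, Tcf21 stayed near 0, and the other 6 genes were lower on Day 14 than on Day 3.

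The homeobox genes moved apart. En1, the gene of the scar-forming dorsal lineage, was at 135 CPM on Day 3, 104 CPM on Day 7 and 98.5 CPM on Day 14. Its log2 ratio was -0.38 (95% interval -0.45 to -0.32) for Day 7 over Day 3 and -0.07 (-0.12 to -0.02) for Day 14 over Day 7, a step that changed sign with scaling by the median of ratios. Prrx1 was at 634, 473 and 380 CPM on Days 3, 7, and 14, lower at each step by less than 2-fold. Its paralogue Prrx2 went the other way, with 19.4, 41.2 and 51.8 CPM, a log2 ratio of 1.09 (0.94 to 1.25) for Day 7 over Day 3 and of 0.33 (0.26 to 0.40) for Day 14 over Day 7. The intervals of the paralogues lay on opposite sides of 0 at both steps. After thinning every cell to 5000 UMIs, Prrx2 was detected in 7.71% (5.26% to 10.8%), 17.7% (16.7% to 18.8%) and 22.2% (21.1% to 23.2%) of fibroblast-like cells on Days 3, 7, and 14, whereas Prrx1 went from 92.5% to 86.6% and 81.5%.

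Meox1 was low on Days 3 and 7 and higher on Day 14. It had 21 UMIs in all fibroblast-like cells on Day 3 (1.06 CPM), 90 UMIs on Day 7 (1.41 CPM) and 526 UMIs on Day 14 (7.48 CPM). The log2 ratio was 0.40 (-0.30 to 1.16) for Day 7 over Day 3, which could not be told from 0, and 2.41 (2.08 to 2.75) for Day 14 over Day 7, or 5.31-fold. Its thinned share was 0.514%, 0.641% and 3.06% of cells on Days 3, 7, and 14.

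Of the bHLH genes, Twist1 was higher at each step and Twist2 was nearly level. Twist1 was at 161, 186 and 252 CPM on Days 3, 7, and 14, with log2 ratios of 0.21 (0.15 to 0.26) and 0.44 (0.41 to 0.47). Its share of cells thinned to 5000 UMIs was 52.2% (47.1% to 57.2%), 57.0% (55.6% to 58.3%) and 65.2% (63.9% to 66.4%). Twist2 was at 75.3, 66.9 and 63.1 CPM, with log2 ratios of -0.17 (-0.26 to -0.08) and -0.08 (-0.14 to -0.02), and both of these steps changed sign with another scaling. Tcf21 was not detected on Days 3 and 7, where 0 UMIs in 19725146 and 63960925 allow at most 0.152 and 0.0469 CPM (3 counts). On Day 14 it had 2 UMIs in 70341847. No other class held a Tcf21 UMI.

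Snai1 was the member with the steepest early difference. It was at 46.7 CPM on Day 3, 15 CPM on Day 7 and 11.1 CPM on Day 14, a log2 ratio of -1.63 (-1.77 to -1.50) for Day 7 over Day 3. Its thinned share of cells was 17% (13.4% to 21.1%), 6.4% (5.76% to 7.08%) and 5.42% (4.85% to 6.03%). The other zinc finger gene, Snai2, was lower on Day 14, whereas its difference between Days 3 and 7 had no settled direction. It was at 34.6, 32.3 and 13.6 CPM, with log2 ratios of -0.10 (-0.23 to 0.03) and -1.24 (-1.35 to -1.13). For Day 7 over Day 3, the Snai2 ratio was 0.49 (0.27 to 0.70) within cluster 18. Against all other cells, this cluster was led by the proliferation genes Ube2c, Top2a and Pclaf. Over the whole class the Snai2 ratio was 0.12 when scaled without the 50 most abundant genes and 0.05 when scaled by the median of ratios. Runx1 was lower at each step, with 315, 252 and 173 CPM and log2 ratios of -0.32 (-0.36 to -0.28) and -0.55 (-0.58 to -0.51). Its thinned share was 72.0%, 58.5% and 51.1% of cells. Thinning left out 23, 515 and 871 fibroblast-like cells that had fewer than 5000 UMIs. Without thinning, at the unequal depths given above, Prrx2 was found in 44.7%, 31.6% and 37.4% of cells on Days 3, 7, and 14 and Snai1 in 59.7%, 12.3% and 9.59%. Twist1 was found in 93.0%, 76.9% and 80.6%, Runx1 in 92.7%, 74.0% and 67.3%, Prrx1 in 96.6%, 94.6% and 90.9%, and Meox1 in 5.10%, 1.37% and 5.13%. Thinned to 5000 UMIs, a fibroblast-like cell held UMIs of a median of 3 of the 10 genes on each day, with a range of 0 to 7.

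The make-up of the fibroblast-like class changed between days, so the ratios were also taken within clusters that held at least 100 cells on both days. Between Days 3 and 7 these were cluster 14 (Saa3, Cxcl5, Ptx3) and cluster 18 (Cxcl5, Lox, Saa3). Genes in brackets in this paragraph led against clusters of other classes. Against all other cells, cluster 18 was led by the proliferation genes Ube2c, Top2a and Pclaf. Snai1 was lower on Day 7 in both, with log2 ratios of -1.88 (-2.20 to -1.57) and -1.39 (-1.69 to -1.10), and Prrx2 was higher in both, at 1.01 (0.76 to 1.26) and 1.18 (0.89 to 1.47). Between Days 7 and 14 they were cluster 9 (Dcn, Mmp3, Clec3b), cluster 10 (Pi16, Mfap5), cluster 15 (Postn, Cthrc1, Lrrc15) and cluster 19 (Mgp, Eln, Cilp). Snai2 was lower on Day 14 in all 4 of these, with log2 ratios from -1.25 to -0.76, and Prrx1 was lower in all 4, from -0.55 to -0.11. Meox1 was higher in clusters 9, 15 and 19, from 2.80 CPM on Day 14 and 0.420 CPM on Day 7 in cluster 9 to 16.5 and 8.38 CPM in cluster 19, and it had 3 UMIs on each day in cluster 10. These ratios rested on few UMIs, with 5 on Day 7 in cluster 9 and 9 on Day 14 in cluster 15. In cluster 19 there were 9 on Day 7 and 402 on Day 14, a log2 ratio of 0.97 (0.03 to 2.11). Cluster 19 made up 1.84% of fibroblast-like cells on Day 7 and 30.8% on Day 14.

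Runx1 and En1 did not follow the class in every cluster. Runx1 was lower on Day 14 over the class as a whole but higher in cluster 9, at 143 CPM on Day 7 and 176 CPM on Day 14 (log2 ratio 0.30, 0.22 to 0.38), and in cluster 10, at 112 and 179 CPM (0.68, 0.56 to 0.81). It was lower in cluster 15, at 324 and 260 CPM (-0.32, -0.49 to -0.16). In cluster 19 Runx1 was nearly level, at 207 and 201 CPM (-0.04, -0.23 to 0.16). Cluster 15, the one of these 4 with the most Runx1 on Day 7, made up 2305 of 5972 fibroblast-like cells on Day 7 and 121 of 6725 on Day 14. En1 was likewise higher on Day 14 in clusters 9 (0.37, 0.26 to 0.48) and 10 (0.70, 0.55 to 0.85), while in clusters 15 and 19 its interval included 0. Twist1 was higher in clusters 9, 15 and 19 and level in cluster 10 (-0.02, -0.12 to 0.08), and Twist2 ranged from -0.43 in cluster 19 to 1.02 in cluster 15.

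**Figure D2:**
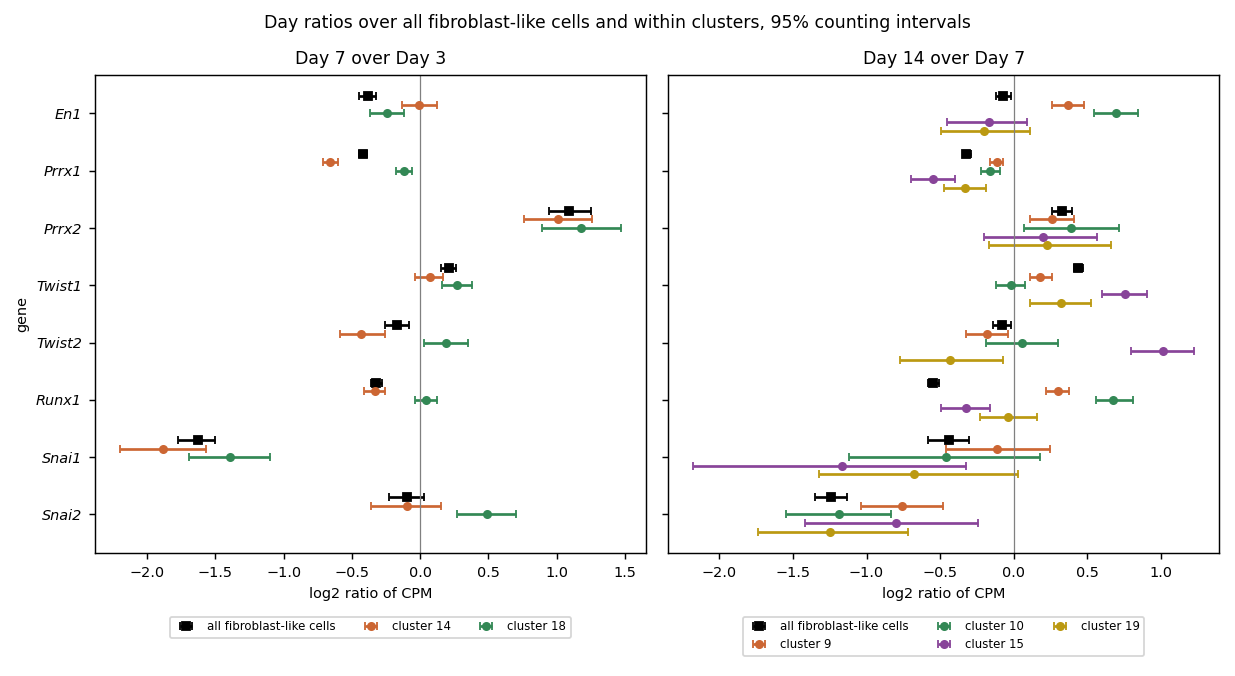
Log2 ratio of CPM (horizontal axis) of 8 genes (vertical axis) for Day 7 over Day 3 (left) and Day 14 over Day 7 (right), over all fibroblast-like cells (black squares) and within each cluster with at least 100 cells on both days (coloured points), with 95% counting intervals. Snai1 (left) and Snai2 (right) lie left of 0 throughout, whereas Runx1 and En1 lie on both sides of 0 on the right.

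Fibroblast-like cells of Day 7 were divided into 10 subclusters and those of Day 14 into 12, and 9 and 10 of these held at least 100 cells. Between the lowest and the highest of these, Prrx1 spanned 1.44-fold on Day 7 and 1.69-fold on Day 14, Twist1 1.4-fold and 2.23-fold, and En1 2.14-fold and 2.46-fold. Others varied more. On Day 7 the span was 6.83-fold for Snai1, 4.09-fold for Snai2 and 4.02-fold for Runx1, and on Day 14 it was 6.95-fold for Runx1, 6.80-fold for Twist2 and 6.10-fold for Snai1. With the coarser division these spans were 5.37-fold, 3.23-fold and 2.65-fold, and then 3.28-fold, 4.19-fold and 3.39-fold. In that division Prrx1 spanned 1.37-fold on Day 7 and 1.64-fold on Day 14, and Twist1 1.31-fold and 1.97-fold. En1 spanned 1.78-fold and 3.32-fold, so on Day 14 it varied about as much as Runx1.

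On Day 7 the highest Runx1 and Snai1 levels were in the same subcluster. Subcluster 0 (625 cells, led by Col7a1, Crabp1 and Spp1) had 1314 CPM of Acta2, the smooth muscle actin of contractile myofibroblasts, beside 9.84 to 679 CPM in the other subclusters. There Runx1 was at 466 CPM (450 to 482), beside 116 CPM (108 to 125) in subcluster 2 (Edn1, Akr1c18, Dmkn). Snai1 was at 35.3 CPM (31 to 39.9) in subcluster 0, an interval overlapped only by that of the 54 cells of subcluster 9, and at 5.16 CPM (3.57 to 7.21) in subcluster 2, and Twist2 at 97.7 and 38.4 CPM. Crabp1 is on the marker list of the mesenchymal class, and the part of such cells in subcluster 0 was not tested. The next highest Runx1 level, 354 CPM (342 to 365), was in subcluster 3 (Cxcl5, Saa3, Ereg), whose Acta2 was 136 CPM. Snai2 and Prrx1 were highest in subcluster 1, led by the proliferation genes Ube2c, Top2a and Mki67, with 54.4 CPM (48.5 to 60.8) and 584 CPM (565 to 604), although the Snai2 interval overlapped those of subclusters 0 and 5. En1 was highest in subcluster 4 (Ptn, Hmcn1), with 142 CPM, and in subcluster 1, with 135 CPM. Subcluster 8 (356 cells) was led by Cd74 and other antigen presentation genes and held 789 CPM of Lyz2, a myeloid gene at 50.9 to 91.1 CPM elsewhere. Its Runx1 level, 248 CPM, was near the class mean.

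On Day 14 Twist1 and Twist2 were highest in other subclusters than Meox1, although Twist1 was at 191 CPM or more in every subcluster. Subcluster 0 (111 cells, led by Prss35, Crabp1 and Mmp11) had the highest En1 (162 CPM, 140 to 187), Twist1 (427 CPM, 390 to 466), Twist2 (239 CPM, 212 to 269), Runx1 (352 CPM, 319 to 388) and Snai2 (33.0 CPM, 23.4 to 45.1) levels. The En1 interval overlapped those of subclusters 8 (141 CPM, 130 to 152) and 6 (137 CPM, 128 to 145), and the Snai2 interval overlapped those of subclusters 8 (17.1 to 25.7), 9 (18.8 to 25.5), 10 (12.4 to 41.9) and 11 (12.5 to 31.6). Twist1 was almost as high in subclusters 7 (Gal, Ppp1r14a, 414 CPM) and 8 (Enpp2, Robo2, Lepr, 412 CPM), and these 3 levels had overlapping intervals. Crabp1, a leading gene of subcluster 0, and Enpp2, one of subcluster 8, are on the marker list of the mesenchymal class. On Day 14 that class had 578 CPM of Twist1, 253 CPM of En1, 484 CPM of Runx1 and 140 CPM of Snai1. The part of such cells in subclusters 0 and 8 was not tested. Subclusters 7 and 8 parted on other genes. Subcluster 7 had the lowest Runx1 level, 50.7 CPM (45.2 to 56.7), and subcluster 8 had the highest Prrx2 level, 89.3 CPM (80.9 to 98.4), and the highest Snai1 level, 25 CPM (20.6 to 30), whose interval overlapped those of subclusters 0, 7, 9, 10 and 11. Meox1 had 1 UMI in subcluster 0 and 1 in subcluster 7. Low levels were not confined to those, with 0.386 to 2.48 CPM of Meox1 in subclusters 2, 3, 5 and 6. In subcluster 8 Meox1 was at 5.43 CPM (3.52 to 8.02). Subclusters 1 (Col8a1, Thbs4, Fmod), 4 (Col18a1, Cldn1, Ptn), 9 (Hspb1, Edn1, Hspa1a) and 11 (the proliferation genes Stmn1 and Top2a) held 465 of its 526 UMIs, or 88.4%, with 41.5% of the cells. In these its level was 13.4, 15.6, 12.8 and 33.8 CPM, the last with an interval of 23.2 to 47.4 CPM from 33 UMIs in 85 cells. Subcluster 11 also held 258 CPM of Lyz2, beside 18.2 to 73.5 CPM in the other Day 14 subclusters. The part of myeloid RNA or cells in its Meox1 level was not tested.

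**Figure D3:**
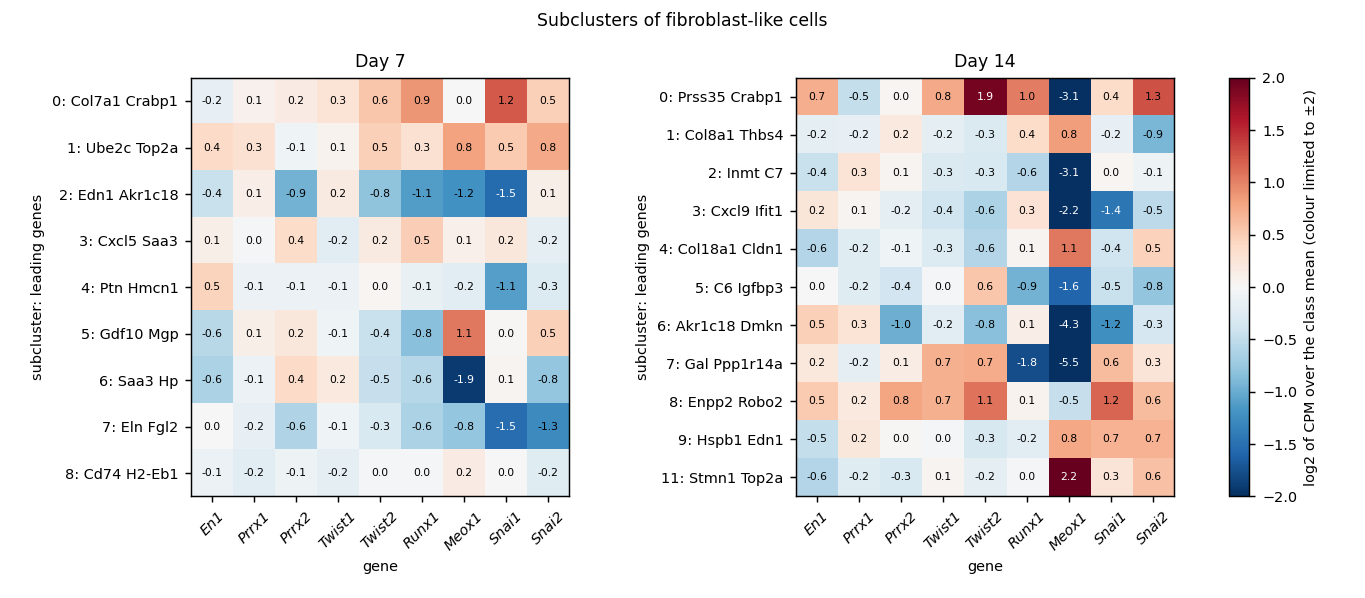
Log2 of the CPM of 9 genes (columns) in subclusters of fibroblast-like cells with at least 80 cells (rows, with their 2 leading genes) over the mean of the whole class on Day 7 (left) and Day 14 (right), printed in each cell and shown as colour limited to 2 in either direction. On Day 7 Runx1 and Snai1 are highest in subcluster 0. On Day 14 Twist1 and Twist2 stand high in subclusters 0, 7 and 8. Meox1 is below the class mean there, and also in subclusters 2, 3, 5 and 6.

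Which genes went together across subclusters differed between the days for some pairs and was alike for others. Over the 9 subclusters of Day 7 with at least 100 cells, the log2 levels of Twist2 and Runx1 had a Pearson r of 0.96, those of Prrx1 and Snai2 of 0.84 and those of Runx1 and Snai1 of 0.75, while Twist1 and Twist2 had an r of -0.04. Over the 10 subclusters of Day 14, Twist1 and Twist2 had an r of 0.90 and Twist1 and Snai1 of 0.75, while Twist2 and Runx1 had an r of 0.05. There Meox1 had an r of -0.27 with Twist1 and of -0.26 with Twist2. Other pairs were alike on Days 7 and 14. Prrx2 and Snai1 had an r of 0.76 and 0.79, Twist2 and Snai1 of 0.70 and 0.63, and En1 and Twist2 of 0.67 and 0.58. Snai1 and Snai2 had an r of 0.56 and 0.64, and Prrx1 and Prrx2 of -0.05 and -0.08. The points of a day share 1 library and its scaling, so these values are a description.

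Among classes with at least 100 cells on a day, En1, Prrx1, Prrx2, Twist1, Twist2, Snai1 and Snai2 were each highest in fibroblast-like, pericyte-like or mesenchymal cell-like cells, whereas Runx1 was found in most classes and Meox1 was highest in endothelial cell-like cells on Days 7 and 14. At least 4-fold higher in fibroblast-like than in macrophage-like cells were 7 of the 8 genes tested on Days 3 and 7 each and 8 of 9 on Day 14, with Runx1 as the exception on each day. The share of all genes past that limit was 19.7%, 15.5% and 15.4%. In macrophage-like cells the 5 genes En1, Prrx1, Prrx2, Twist1 and Twist2 were at 0.549% to 1.28%, 2.97% to 4.92% and 4.0% to 6.48% of their fibroblast-like level on Days 3, 7, and 14. The 8 fibroblast markers were at 0.498% to 1.01%, 2.80% to 5.01% and 3.18% to 5.30% of theirs. On Day 7 these 5 genes lay within the range of the markers. Prrx2 and Twist2 lay above it on Day 3, with 3 and 10 UMIs, and Twist1 and Twist2 on Day 14, at 5.82% and 6.48%. The remaining genes past the 4-fold limit on each day lay mostly above the marker range. Snai1 was at 3.18%, 6.64% and 9.55% of its fibroblast-like level on Days 3, 7 and 14, and Snai2 at 0.477%, just below the range, 6.07% and 9.99%. Meox1, which was past the limit on Day 14 alone, was then at 7.09%. For Runx1 the share was 79.8%, 76.8% and 122%, with 251, 194 and 211 CPM in macrophage-like cells. Thinned to 1000 UMIs, 21.9% (20.3% to 23.5%) of macrophage-like and 22.1% (18.1% to 26.5%) of fibroblast-like cells held a Runx1 UMI on Day 3, with median depths of 4054 and 44189 UMIs before thinning. For Prrx1 the shares were 0.721% and 40.4%.

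**Figure D4:**
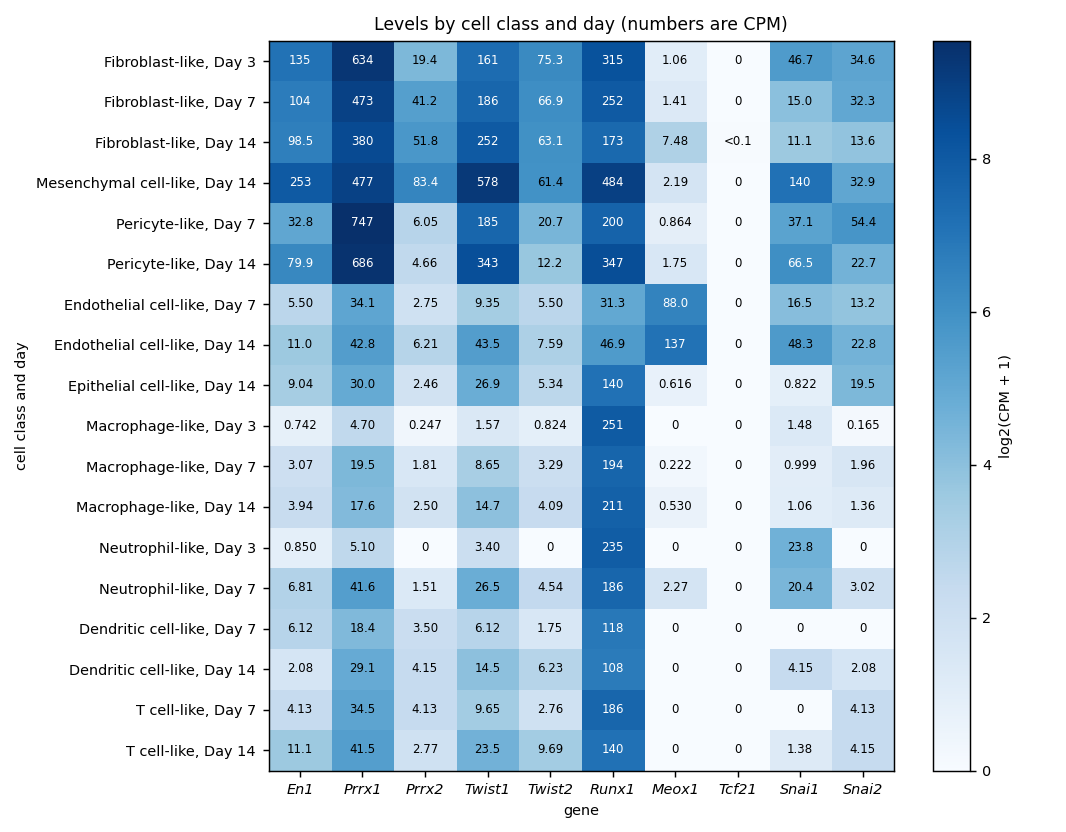
Level of the 10 genes (columns) in cell classes by day (rows), with CPM printed in each cell and log2(CPM + 1) as colour. Classes with fewer than 100 cells on a day are left out. Runx1 is above 100 CPM in each row but those of endothelial cell-like cells, and Meox1 is highest in endothelial cell-like cells.

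Runx1 was present in other immune and epithelial cells too. It was at 235 CPM in neutrophil-like cells on Day 3 and 186 CPM on Day 7, at 118 and 108 CPM in dendritic cell-like cells on Days 7 and 14, at 186 and 140 CPM in T cell-like cells and at 140 CPM (130 to 151) in epithelial cell-like cells on Day 14. Endothelial cell-like cells had the lowest levels of the classes with at least 100 cells, 31.3 CPM on Day 7 and 46.9 CPM on Day 14. Of all Runx1 UMIs in kept cells, 61.2%, 69.9% and 67.2% were in fibroblast-like cells on Days 3, 7, and 14, beside 98.7%, 97.2% and 88.7% for En1.

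Snai1 was in neutrophil-like cells as well. It was at 23.8 CPM there on Day 3, 51.0% of its fibroblast-like level, when the fibroblast markers were at 0.906% to 2.91% of theirs, and at 20.4 CPM on Day 7, when the interval of its log2 ratio to fibroblast-like cells (-0.17 to 0.99) included 0. Thinned to 1000 UMIs, 2.29% (1.26% to 3.81%) of neutrophil-like cells held a Snai1 UMI on Day 3, beside 0.0801% of macrophage-like cells.

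Mesenchymal cell-like cells, a cluster of 824 cells led by Prlr, Slc26a7, Igfbp3, Rasd1 and Enpp2 of which 756 were from Day 14, had more of most of these genes than fibroblast-like cells. On Day 14 Snai1 was at 140 CPM there and 11.1 CPM in fibroblast-like cells, a log2 ratio of 3.66 (3.47 to 3.85). Runx1 was at 484 CPM (log2 ratio 1.49, 1.4 to 1.57), En1 at 253 CPM (1.36, 1.23 to 1.48), Twist1 at 578 CPM (1.20, 1.11 to 1.28) and Snai2 at 32.9 CPM (1.27, 0.91 to 1.61). Prrx2 (0.69, 0.47 to 0.90) and Prrx1 (0.33, 0.24 to 0.42) were higher by less. Twist2 was not different from its fibroblast-like level beyond counting error, at 61.4 CPM (-0.04, -0.29 to 0.20). Meox1 went the other way, at 2.19 CPM there and 7.48 CPM in fibroblast-like cells (-1.77, -3.40 to -0.54), from 5 UMIs. The study derived the marker genes of this class from the same cells, so they give no independent support for its name.

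Pericyte-like cells, contractile cells of the vessel wall, separated the paralogues. On Day 14 they had 686 CPM of Prrx1 and 4.66 CPM of Prrx2, log2 ratios to fibroblast-like cells of 0.85 (0.77 to 0.94) and -3.47 (-4.69 to -2.49). Twist1 was at 343 CPM (0.44, 0.32 to 0.56) and Twist2 at 12.2 CPM (-2.37, -3.06 to -1.75). The same split was found on Day 7, with 747 and 6.05 CPM of Prrx1 and Prrx2, although Twist1 was then level with fibroblast-like cells (-0.01, -0.21 to 0.18). The Prrx2 level was 9.0% of that in fibroblast-like cells on Day 14, beside 4.82% in macrophage-like cells. Snai1 was higher than in fibroblast-like cells on both days, with 37.1 and 66.5 CPM, and so was Snai2, with 54.4 and 22.7 CPM.

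Endothelial cell-like cells held the highest Meox1 level of any class on Days 7 and 14, 88.0 CPM on Day 7 and 137 CPM on Day 14 (log2 ratio 0.64, 0.34 to 0.95). The log2 ratio to fibroblast-like cells was 5.97 (5.58 to 6.36) on Day 7 and 4.20 (3.96 to 4.44) on Day 14. Thinned to 1000 UMIs, 14.9% (10.4% to 20.5%) of them held a Meox1 UMI on Day 14, beside 0.493% of fibroblast-like cells. Without thinning, 39.3% of endothelial cell-like, 5.13% of fibroblast-like and 0.207% of macrophage-like cells held a Meox1 UMI on Day 14, at median depths of 3861, 10217 and 3613 UMIs. The 8 endothelial markers summed to 15.3 CPM in fibroblast-like cells on Day 7 and 13.6 CPM on Day 14, while Meox1 went from 1.41 to 7.48 CPM in the same cells. The part of endothelial RNA in the fibroblast-like Meox1 level was not tested. Snai1 was at 16.5 and 48.3 CPM in endothelial cell-like cells and Snai2 at 13.2 and 22.8 CPM. Snai2 was found in epithelial cell-like cells on Day 14 at 19.5 CPM (15.8 to 23.9), above its fibroblast-like level (log2 ratio 0.52, 0.20 to 0.82).

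The genes whose levels were most alike were taken from Pearson's r of log2(CPM + 1) over 51 units, each a cluster within a library with at least 100 cells, among 10976 genes. These units share libraries, depth and the contrast of mesenchymal with immune cells. For En1 they were Rbms3 (r 0.953), Slit3 (0.949) and Twist2 (0.946), and Twist2 had En1 as its first. For Prrx1 they were the collagen receptor gene Ddr2 (0.973), Snhg18 and Runx1t1, and for Twist1 they were Igsf10 (0.961), the procollagen processing gene Pcolce and Ddr2. Prrx2 was most like Armh4 (0.951), Snai2 most like Cald1 (0.949) and Snai1 most like Dmwd (0.897). Meox1 was most like the endothelial genes Sele (0.893), Ptprb (0.868) and Shank3 (0.858). The only endothelial cell-like units were those of Days 7 and 14, with 88.0 and 137 CPM of Meox1. These r values are therefore not independent of the class levels given above. Runx1 had no close match, with Tent5a at 0.607, Smim3 at 0.571 and the hyaluronan receptor gene Cd44 at 0.553.

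Companion genes in fibroblast-like cells are given as counts past 2-fold. The shares of all genes were 9.05% higher and 9.44% lower on Day 7 than on Day 3. On Day 14 they were 3.72% higher and 8.69% lower than on Day 7. No list was tested against these shares, and counts from lists this short can lie near them. Examples are taken from the 4 most abundant of each list, apart from those named only for passing 2-fold and Tcf3, Acta2, Tagln, Dlk1 and Cdh1, which were chosen after their values were seen. Of the 7 bHLH partners and inhibitors, 1 was at least 2-fold higher on Day 7 than on Day 3 (Id4) and 2 on Day 14 than on Day 7 (Id1 and Id3), with 0 lower at either step. Id3, which blocks bHLH dimers, was at 152, 251 and 504 CPM on Days 3, 7, and 14, while the E protein genes Tcf4 (195, 223 and 273 CPM) and Tcf12 (78.8, 77.8 and 67.3 CPM) stayed within 2-fold. The third E protein gene, Tcf3, was at 56.5, 38.8 and 26.3 CPM, a log2 ratio of -1.10 (-1.21 to -0.99) for Day 14 over Day 3. The median log2 ratio of the list was -0.02 and then 0.48, beside -0.13 and -0.21 for all genes. The EMT repressors Zeb2 (270, 276 and 279 CPM) and Zeb1 (89.8, 120 and 95.7 CPM) were within 2-fold at both steps, and Snai3 had 0 UMIs. Of Runx2, Runx3 and Cbfb, Runx3 was higher on Day 7 than on Day 3, from 1.17 to 3.27 CPM, and Runx2 was lower on Day 14 than on Day 7, from 52.3 to 21.8 CPM. Cbfb, the gene of the shared partner, was at 68.3, 48.7 and 34.7 CPM.

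Of 30 other dermal fibroblast factors, 24 reached 1 CPM, of which 4 were at least 2-fold higher (Trps1, Foxd1, Klf4, Heyl) and 3 lower (Foxf1, Foxp1, Creb3l1) on Day 7 than on Day 3. Some of these rested on few UMIs. On Days 3 and 7 Foxd1 had 1 and 52 UMIs, Heyl 11 and 149, and Foxf1 50 and 47. On Day 14, 3 were higher than on Day 7 (Foxd1, Mkx, Msx1). The most abundant were Klf4 (370, 767 and 1200 CPM), Ebf1 (472, 387 and 447 CPM), the collagen regulator Creb3l1 (684, 292 and 272 CPM) and Foxp1 (401, 200 and 126 CPM). Of 14 factors driven by TGF-beta, Hippo, serum response and AP-1 signalling, 1 was higher (Jun, 569 to 1298 CPM) and 2 lower (Srf and Fosl1) on Day 7 than on Day 3, and 0 higher and 1 lower (Mrtfa) on Day 14 than on Day 7. Junb, the most abundant of them, was at 1719, 1044 and 1278 CPM. Among 5 surface genes used to sort dermal lineages, Dlk1 (0.253 to 51.5 CPM) and Thy1 (85.8 to 212 CPM) were higher on Day 7 than on Day 3, and 0 differed 2-fold on Day 14, when Ly6a was at 1647 CPM and Dpp4 at 111 CPM. Of the 9 measured EMT and myofibroblast readouts, 4 were higher (Cdh11, Postn, Acta2, Tagln) and 1 lower (Ccn2) on Day 7 than on Day 3, and 1 was higher (Ccn2) and 4 lower (Cdh2, Acta2, Tagln, Tnc) on Day 14 than on Day 7. Acta2 was at 118, 277 and 18.8 CPM, Tagln at 18.8, 104 and 23.6 CPM, and the matrix genes Postn at 1321, 4975 and 3497 CPM and Tnc at 665, 722 and 166 CPM. Vim was at 2848, 1956 and 2454 CPM and Fn1 at 1002, 1976 and 1717 CPM. Cdh1, the epithelial cadherin, was at 0, 0.266 and 1.14 CPM. The 8 epithelial markers summed to 7.76, 18.6 and 94.0 CPM in the same fibroblast-like cells, and Day 14 subcluster 10 (48 cells) was led by genes that include the keratins Krt14, Krt77 and Krt1. Their part in the Cdh1 level was not tested.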

How the data were processed

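Per the labels and methods, cells of dorsal wounds from the 3 days were dissociated, cleared of red cells and debris, and captured with a 10x Genomics 3′ kit, 1 library a day. The authors deposited raw UMI counts per gene and barcode, made with Cell Ranger 6.0.0 on mm10 according to the submitters' processing notes. The annotation release is not given in the sources used here, and every barcode held at least 500 UMIs.

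Cells with at least 200 genes, 500 UMIs and at most 10% mitochondrial UMIs were kept. Doublets were called by simulated neighbours at 0.5 of the expected rate, which removed 92, 1978 and 962 cells. Free RNA was not subtracted and some doublets may remain. Cells were clustered with scanpy 1.11.5 (Leiden, resolution 1) on 2000 variable genes, from which Gm42418, the ribosomal protein and mitochondrial genes, the 10 members and every listed companion gene were left out, and fibroblast-like cells of Days 7 and 14 were clustered again at resolution 0.6. Clusters were named from at least 3 markers. The markers were kept as fixed, but how they are scored was changed with the clusters in view, and 4 of 30 clusters stayed unnamed. Of these, cluster 8 (92, 318 and 349 cells on Days 3, 7 and 14, median 935 UMIs) carried all 8 fibroblast markers. It was left out of the fibroblast-like class for low UMIs with no fibroblast marker among its leading genes. Adding it to the class was among the alternatives. UMIs were summed per class and library. Genes with a mean of at least 1 CPM were compared, with 2-fold between days and 4-fold between classes as limits. Shares were thinned to 5000 UMIs within fibroblast-like cells and 1000 UMIs across classes. Intervals (95%, scipy 1.17.1) cover counting error only, and 3 counts are the limit given for a count of 0. The interval calculation was tested on simulated data. With 1 library a day there was no test.

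Named genes were the 10 members and at most 4 examples per list of the highest mean CPM. For each member, the 3 genes of highest correlation among those at 20 CPM or more were named too. Listed genes that passed 2-fold were added, as were Tcf3, Acta2, Tagln, Dlk1 and Cdh1, which were chosen after their values were seen. The members and lists were chosen with earlier results of these data known. Alternatives changed the scaling, filters, doublet rate, clustering and class rule, and leaving out cluster 15 and splitting by cluster were added after the data were seen. The genes of the dermal factor list that were lower on Day 14 than on Day 7 are not reported here.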

Additional observations from a re-analysis of the deposited data

Results flagged for a closer look

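For 3 of the genes, the Day 14 over Day 7 ratio went one way in fibroblast-like cells and the other way in another class, with counting intervals on opposite sides of 0 and at least 20 CPM on both days in that class. With 1 library a day these differences between classes were not tested. Runx1 had a log2 ratio of -0.55 (-0.58 to -0.51) in fibroblast-like cells, beside 0.80 (0.58 to 1.02) in pericyte-like cells, 0.58 (0.05 to 1.12) in endothelial cell-like cells and 0.12 (0.06 to 0.19) in macrophage-like cells. En1 had -0.07 (-0.12 to -0.02) in fibroblast-like and 1.28 (0.76 to 1.84) in pericyte-like cells, and Snai1 had -0.44 (-0.58 to -0.30) and 0.84 (0.32 to 1.38). The sign of the fibroblast-like side changed with scaling or without cluster 15 for En1, and without cluster 15 for Snai1. For Runx1 it held in all 13 alternatives, which ranged from -0.55 to -0.24. The fibroblast-like ratio was 0.13 for En1 when scaled by the median of ratios, and 0.06 for En1 and 0.02 for Snai1 without cluster 15. Within clusters 9 and 10 it was 0.37 and 0.70 for En1 and 0.30 and 0.68 for Runx1. Snai1 also had a ratio of 1.55 (0.91 to 2.22) in endothelial cell-like cells, where its Day 7 level of 16.5 CPM was under that limit. Over all kept cells of a library, 88.7% of En1 UMIs and 59.1% of Snai1 UMIs lay in fibroblast-like cells on Day 14, beside 97.2% and 86.8% on Day 7. Whether free RNA or doublets take part in the pericyte-like levels was not tested.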

How the results depend on the processing

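Each ratio between days was recomputed under 13 alternatives, and 12 of 18 ratios kept their sign in all of them. The 2-fold counts moved in 3 cases. With a minimum of 5 CPM, 1 gene (Snai2) passed between Days 7 and 14, and between Days 3 and 7 it was 1 (Snai1) when each cell was classed by its own marker UMIs and 1 (Snai1) without cluster 15. Scaling by the median of ratios turned the Day 14 over Day 7 log2 ratio of En1 to 0.13 and of Twist2 to 0.12, and scaling without the 50 most abundant genes turned the Day 7 over Day 3 ratio of Twist2 to 0.05. For Snai2, Day 7 over Day 3 became 0.12 and 0.05 without the 50 most abundant genes and by the median of ratios. For Twist2, Day 14 over Day 7 was 0.02 with the mean of each cell's CPM and 0.03 with each library clustered alone. Without cluster 15 the Day 14 over Day 7 ratios were 0.06 for En1, 0.12 for Twist2 and 0.02 for Snai1, and Day 7 over Day 3 was -0.02 for Meox1. Within clusters, Day 7 over Day 3 was 0.49 for Snai2, 0.19 for Twist2 and 0.04 for Runx1 in cluster 18 and -1.31 (-3.53 to 0.66) for Meox1 in cluster 14, and Day 14 over Day 7 was 0.37 for En1 and 0.30 for Runx1 in cluster 9, 0.70 for En1, 0.68 for Runx1, 0.06 for Twist2 and -0.02 for Twist1 in cluster 10, and 1.02 for Twist2 in cluster 15. The causes were not tested. Over all genes, the share of 2-fold differences that were higher was 48.9% for Day 7 over Day 3 and 68.6% or 62.2% with those 2 scalings (without the 50 most abundant genes and by the median of ratios), whereas for Day 14 over Day 7 there were 456 higher and 1066 lower genes, and 659 and 769 by the median of ratios. The median of all genes was then 0.10, 0.03 and 0.00. No paired analysis was possible because each day is 1 library. Meox1 before Day 14 rested on 21 and 90 UMIs.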
